A study of Saccharomyces cerevisiae with 6 samples.

Results

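In budding yeast (Saccharomyces cerevisiae), the a-specific genes are expressed in haploid cells of mating type a and kept silent in alpha cells. The genes MFA1, MFA2, STE2, STE6, BAR1 and AGA2 were taken as the rows of the deposited table that carry these names, 6 of the 4909 genes analysed. The rule uses no measured value. All 6 had at least 20 reads in each of the 6 libraries, as 3949 of the 4909 genes did.

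Native poly(A) RNA was read on nanopores, which gave a read count per gene and the median poly(A) tail length of its reads. The tested strains were the Dcp2 degron (strain LMA5574, with DCP2(YNL118c)::polyG-3Flag-AID::kanMX) and the Ccr4/Pop2 degron (strain LMA5601, with AID-3Flag-CCR4 and CAF1(YNR052c)::AID-KanMX6), each set against the wild type BY4741, with 2 libraries per strain. Per the labels, both degron strains derive from BY4741 and also carry TAO3_E1493Q, an inserted A at -308 of RME1 (YGR044c), and the construct TRP1-prURA3-Z3EVtf-tURA3-Z3EV-TIR at the trp1-1 locus. The wild type is given with leu2{delta}0 and his3{delta}1 and with the further alleles ura3{delta}0 and met15{delta}0. All 3 strains are Mat a, were grown in rich medium (YPD, 30 °C) until the OD600 reached 0.4, and were treated for 1 h with β-estradiol (1 µM) and with IAA, an auxin (100 µM). Dcp2 catalyses the removal of the 5′ cap from messenger RNA, and Ccr4 and Pop2 (also called Caf1) are the deadenylases that shorten its poly(A) tail. The AID tag directs a protein's destruction when auxin is present, through the TIR protein supplied by the construct, and the deposited table does not measure how far each protein was depleted. The other alleles are shared by both degron strains and absent from the wild type, so their part in any difference from the wild type and that of the depletion cannot be told apart. Each degron strain is a single strain, and the labels do not say whether the 2 libraries of a strain came from separate cultures, so p-values measure only the spread between these libraries.

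The a-specific genes make a cell of mating type a able to find and join an alpha cell. MFA1 and MFA2 encode precursors of the a-factor pheromone, which the transporter Ste6 exports. Ste2 is the receptor for the alpha-factor of the partner, Bar1 is a secreted protease that degrades alpha-factor, and Aga2 is the binding subunit of the a-agglutinin on the cell surface. Their promoters hold an operator for Mcm1, which activates them in a cells, flanked by sites for alpha2, which represses them together with Mcm1 in alpha cells. Pheromone raises their expression through the transcription factor Ste12. In studies of messenger RNA decay, MFA2 RNA is the classic unstable transcript and PGK1, a glycolytic gene, the classic stable one.

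The operators are shown because they are the shared element that makes these genes a-specific. They were read from the RefSeq genome of assembly R64, the assembly that the build sacCer3 named in the submitters' processing notes stands for, and are given 5′ to 3′ on the coding strand. Capitals mark the Mcm1 core (CC and GG with 6 bases of any kind between them, the same on both strands) and each match to the alpha2 site CATGTAA, which reads TTACATG on the other strand.
MFA1 operator: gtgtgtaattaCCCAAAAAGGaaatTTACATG
MFA2 operator: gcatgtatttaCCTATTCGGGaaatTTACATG
STE2 operator: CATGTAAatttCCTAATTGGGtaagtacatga
STE6 operator: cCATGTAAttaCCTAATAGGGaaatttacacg
BAR1 operator: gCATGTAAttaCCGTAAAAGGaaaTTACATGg
AGA2 operator: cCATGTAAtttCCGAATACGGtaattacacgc
These 32-base stretches lie at chrIV:1384941-1384972 (+) for MFA1, chrXIV:352162-352193 (+) for MFA2, chrVI:82351-82382 (+) for STE2, chrXI:46477-46508 (-) for STE6, chrIX:322077-322108 (+) for BAR1 and chrVII:437101-437132 (-) for AGA2. The core started between 202 bases (STE6) and 288 bases (AGA2) before the start codon.

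The window of 300 bases before the start codon and the largest distance of 15 bases between the starts of core and alpha2 site were chosen after the promoters of these genes had been seen. Within that window, a core with a alpha2 site at that distance stood before 15 of 6020 protein-coding genes (0.249%), among them all 6 genes described here. Alone, the core was present before 28.7% and CATGTAA before 3.9% of all genes, on either strand. BAR1 held a alpha2 site on each side of its core, and the other 5 genes held 1 exact match. The pheromone response element TGAAACA, the site of Ste12, was present before 5 of the 6 genes (7.18% of all genes) and had no match in the window of MFA1. A match describes the letters only and was not tested as a binding site.

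**Figure D1:**
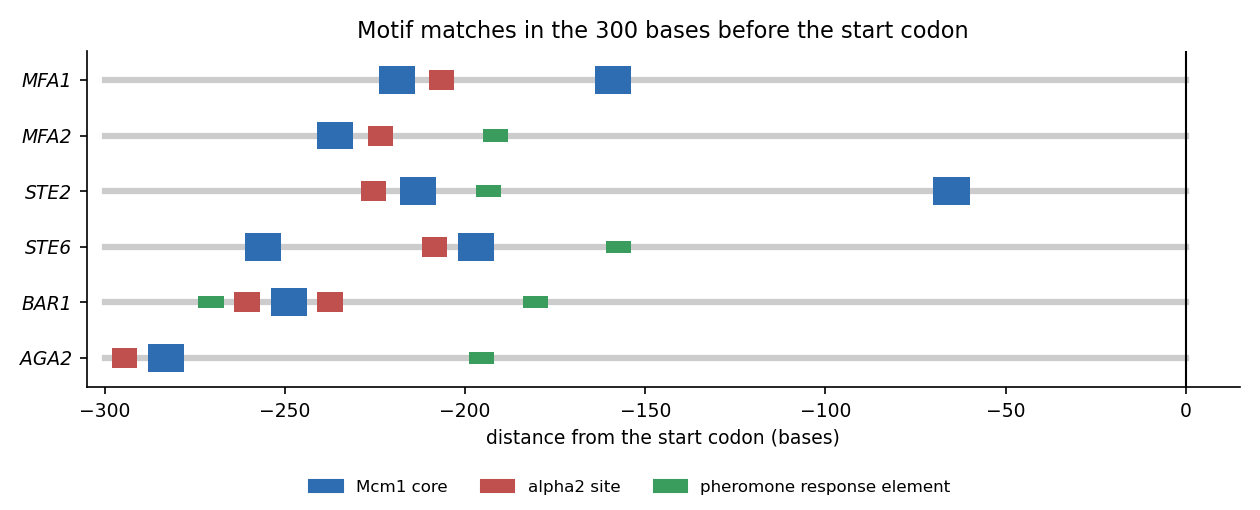
Positions of motif matches in the 300 bases before the start codon of each a-specific gene; the horizontal axis is the distance from the start codon in bases, blue boxes are Mcm1 cores, red boxes alpha2 sites and green boxes pheromone response elements on either strand. Each gene has a core that starts between 202 and 288 bases before the start codon with a alpha2 site beside it, and MFA1 alone lacks a green box.

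MFA1 and MFA2 both encode the same kind of short precursor, and their coding sequences are shown because reads of the pair have to be told apart for their levels to be separate measurements. Capitals mark the longest run of bases that both share.
MFA1 coding sequence: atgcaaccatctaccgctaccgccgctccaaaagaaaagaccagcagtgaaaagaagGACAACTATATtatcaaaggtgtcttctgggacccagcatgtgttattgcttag
MFA2 coding sequence: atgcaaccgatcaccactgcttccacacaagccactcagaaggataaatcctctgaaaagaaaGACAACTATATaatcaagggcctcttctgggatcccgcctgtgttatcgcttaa
The MFA1 sequence has 111 bases (chrIV:1385176-1385286, +) and the MFA2 sequence 117 bases (chrXIV:352414-352530, +). Of 120 aligned columns, 86 were identical (71.7%), and the longest shared run was 11 bases. Neither gene had the same counts as another gene of the table. No annotated gene overlapped any of the 6 genes in R64, and the next gene downstream of each lay on the opposite strand, between 168 and 289 bases away. Whether counting used strand is not given in the sources used here.

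Total counts over all genes were 1067250 and 1967303 in Dcp2 degron cells, 8450296 and 1825046 in Ccr4/Pop2 degron cells and 1857632 and 1751159 in wild-type cells (replicates 1 and 2, in that order here and below). In replicate 1 of the Ccr4/Pop2 degron, all counts were multiples of 4, against 23.8% to 25.9% of counts in the other libraries, so its counts may not be numbers of separate reads and its depth is uncertain. The lowest count of any analysed gene was 20 in replicate 1 of each degron strain and between 1 and 6 in the other libraries. Genes with fewer counts in replicate 1 of the degron strains may therefore be missing. Shares of all genes given here are shares of the listed genes only. The 6 genes together took 0.0900% and 0.0573% of the reads in Dcp2 degron cells, 0.174% and 0.107% in Ccr4/Pop2 degron cells, and 0.124% and 0.0667% in wild-type cells. The 95% Wilson interval for replicate 2 of the Dcp2 degron ran from 0.0541% to 0.0608%, and that for replicate 2 of the wild type from 0.0630% to 0.0706%, for counting error only. All strains carry the label Mat a, and all 6 a markers were read in every library. Of the alpha markers only SAG1, which encodes alpha-agglutinin, was among the genes analysed. It had 22.8 and 15.7 CPM (reads of the gene relative to the library's total, scaled with TMM factors, which align the bulk of genes between libraries) in Dcp2 degron cells, 2.9998 and 4.80 CPM in Ccr4/Pop2 degron cells, and 9.26 and 10.5 CPM in wild-type cells.

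In TMM-scaled CPM, all 6 a-specific RNAs were lower in Dcp2 degron cells than in wild-type cells, with no overlap of libraries. When libraries were scaled by their total counts, only MFA1 did not overlap. The changes ran from a log2 change of -1.54 for MFA1 to -0.61 for STE2, with a median of -0.87, while the median of all genes was -0.02. When replicate number entered the model as a block all 6 passed the test, and without the block none did. Libraries with the same number deviated together across genes, which is why both results are given. Levels are relative to the other genes of a library, so a change in the amount of all messenger RNA cannot be seen in them. In a bulk culture, fewer expressing cells and less RNA per cell cannot be told apart.

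The a-factor gene MFA1 had 56.2 and 76.8 CPM in Dcp2 degron cells, 329 and 309 CPM in Ccr4/Pop2 degron cells and 228 and 158 CPM in wild-type cells. The 3 strains did not overlap, with the Dcp2 degron lowest and the Ccr4/Pop2 degron highest. In Dcp2 degron cells the log2 change from the wild type was -1.54 ± 0.36 (SE; 0.345-fold), with an adjusted p of 0.28 in edgeR's quasi-likelihood test. With the replicate number as a block it was -1.52 ± 0.18, with an adjusted p of 5.0e-06 in the same test.

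MFA2, the other a-factor gene, had 90.8 and 79.9 CPM in Dcp2 degron cells, 277 and 221 CPM in Ccr4/Pop2 degron cells and 204 and 127 CPM in wild-type cells. Behind these stood counts of 147 and 158 in Dcp2 degron cells, 2584 and 323 in Ccr4/Pop2 degron cells and 396 and 158 in wild-type cells. The count of 2584 is from the library whose counts were multiples of 4. The order of the strains was that of MFA1, again without overlap. The MFA2 log2 change in Dcp2 degron cells was -0.96 ± 0.36 (SE), with an adjusted p of 0.40 in edgeR's quasi-likelihood test. With the block it was -0.94 ± 0.16, with an adjusted p of 0.00012 in the same test.

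BAR1, the alpha-factor protease gene, had 63.0 and 46.0 CPM in Dcp2 degron cells, 348 and 226 CPM in Ccr4/Pop2 degron cells and 127 and 107 CPM in wild-type cells. Its libraries kept the same order of strains with no overlap, and its 2 Ccr4/Pop2 degron libraries lay further apart than those of the other strains. In Dcp2 degron cells the BAR1 log2 change was -1.10 ± 0.37 (SE; adjusted p = 0.36, edgeR's quasi-likelihood test), and -1.10 ± 0.17 with the block (adjusted p = 5.0e-05). AGA2, the agglutinin subunit gene, had 72.9 and 58.6 CPM in Dcp2 degron cells, 176 and 132 CPM in Ccr4/Pop2 degron cells and 128 and 79.7 CPM in wild-type cells. The lowest Ccr4/Pop2 degron library of AGA2 was just above the highest wild-type library, and both Dcp2 degron libraries were below the wild type. For AGA2 the log2 change in Dcp2 degron cells was -0.66 ± 0.36 (SE; adjusted p = 0.51, edgeR's quasi-likelihood test), and -0.65 ± 0.16 with the block (adjusted p = 0.0044).

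The receptor gene STE2 had 235 and 264 CPM in Dcp2 degron cells, 346 and 361 CPM in Ccr4/Pop2 degron cells and 373 and 391 CPM in wild-type cells. Its wild-type libraries were the highest, and replicates of each strain lay close together. The STE2 log2 change between Dcp2 degron and wild-type cells was -0.61 ± 0.32 (SE; adjusted p = 0.49, edgeR's quasi-likelihood test), and -0.61 ± 0.12 with the block (adjusted p = 0.00062). The transporter gene STE6 had 75.3 and 44.5 CPM in Dcp2 degron cells, 102 and 88.4 CPM in Ccr4/Pop2 degron cells and 129 and 77.3 CPM in wild-type cells. The wild-type libraries enclosed those of the Ccr4/Pop2 degron, and the higher Dcp2 degron library came just under the lower wild-type library. For STE6 the log2 change in Dcp2 degron cells was -0.79 ± 0.40 (SE; adjusted p = 0.48, edgeR's quasi-likelihood test), and -0.80 ± 0.18 with the block (adjusted p = 0.0019).

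**Figure D2:**
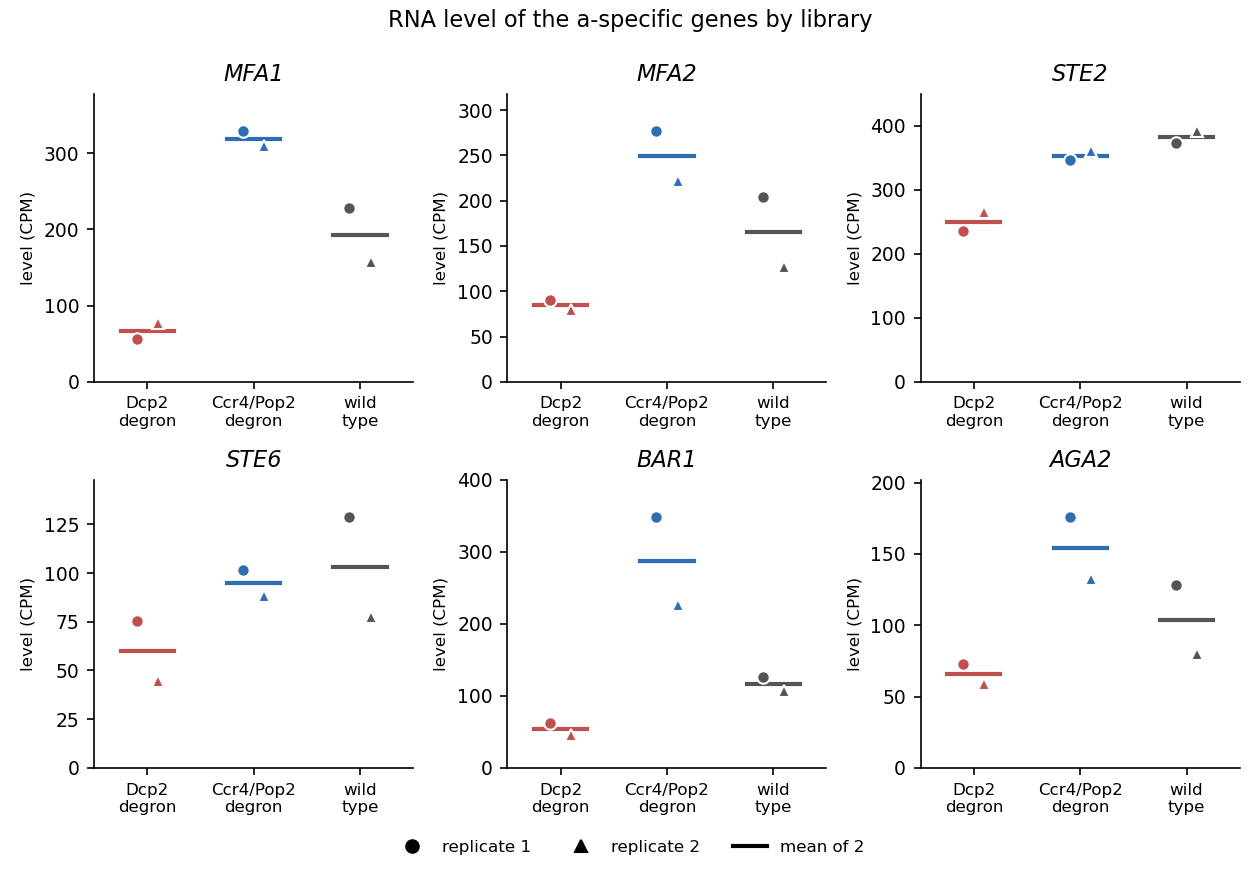
RNA level of each a-specific gene by library, in CPM on a linear axis that starts at 0; circles are replicate 1, triangles replicate 2 and bars the mean of the 2 libraries of a strain. On this TMM scale the Dcp2 degron lies below the wild type in all 6 panels (with total-count scaling for MFA1 only, without overlap). The Ccr4/Pop2 degron lies above the wild type for MFA1, MFA2, BAR1 and AGA2 (with total-count scaling for MFA1 and BAR1 only, without overlap).

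Over the 6 genes, both Dcp2 degron libraries were lower in TMM-scaled CPM than both wild-type libraries for 6 of 6, as they were for 20.4% of all genes. With total-count scaling, chosen for this count after seeing the data, that held for 1 of the 6 (MFA1) and for 2.08% of all genes. With edgeR's quasi-likelihood test and no block, 0 of the 6 and 0 of 4909 genes (0%) were called at an adjusted p under 0.05. In that fit 579 genes had an unadjusted p under 0.05, and DESeq2 called 53 genes, none of the 6 among them. With the block, 6 of the 6 were called lower, where 19.7% of all genes were. Leaving out wild-type replicate 1 from the blocked fit ended the calls of STE2, STE6 and AGA2, and leaving out any other library ended none. The number of all genes called also moved when 1 library was left out of that fit. The blocked median change of the 6 genes then lay between -0.95 and -0.66. Without the block, leaving out wild-type replicate 1 moved the log2 change of MFA2 to -0.57, that of STE6 to -0.37 and that of AGA2 to -0.27. Leaving out Dcp2 degron replicate 1 moved STE6 to -1.21, and leaving out Dcp2 degron replicate 2 moved it to -0.45. When libraries were scaled by their total counts instead, the median of all genes moved to 0.51 and the median of the 6 genes to -0.37. Under that scaling with the block, 3 of the 6 (MFA1 at -1.01, MFA2 at -0.42 and BAR1 at -0.58) were called lower. The other changes under that scaling with the block were -0.28 for STE6, -0.13 for AGA2 and -0.10 for STE2, and these were not called.

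In Ccr4/Pop2 degron cells, BAR1, MFA1, MFA2 and AGA2 were higher than in wild-type cells, by between 0.57 and 1.30 on the log2 scale, and STE2 and STE6 were close to it. The largest of these differences was that of BAR1, at 1.30 ± 0.37 (SE; 2.46-fold; adjusted p = 0.47, edgeR's quasi-likelihood test), and 1.30 ± 0.14 with the block (adjusted p = 3.5e-06). The 2 a-factor genes differed by similar amounts, MFA1 by 0.73 ± 0.35 (adjusted p = 0.69) and MFA2 by 0.59 ± 0.36 (adjusted p = 0.78) in edgeR's test. With the block, MFA1 reached an adjusted p of 0.0027 and MFA2 one of 0.0044 in edgeR's test. AGA2 differed by 0.57 ± 0.36 (adjusted p = 0.80, edgeR's quasi-likelihood test), with an adjusted p of 0.0081 with the block. The log2 change was -0.11 ± 0.32 for STE2 (adjusted p = 0.98) and -0.12 ± 0.39 for STE6 (adjusted p = 0.98) in edgeR's test. With the block, neither STE2 nor STE6 passed either (adjusted p = 0.51 and 0.56, edgeR).

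Without overlap between libraries, 4 of the 6 genes were higher in Ccr4/Pop2 degron cells than in wild-type cells (16.5% of all genes were) and 1, STE2, was lower (15.6% of all genes were), in TMM-scaled CPM. With total-count scaling 2 of the 6, MFA1 and BAR1, were higher without overlap, as 17.8% of all genes were, and STE2 overlapped. The median change of the 6 genes was 0.58, and that of all genes was -0.01. None of the 6 was called without the block, when 4 of 4909 genes were (0.0815%; HXT6, HXT7, GLC3 and YLR154C-H, named after their values were seen). With the block 4 of the 6 were called higher, where 14.2% of all genes were. Leaving out either wild-type library from the blocked fit ended some of these calls. The number of all genes called also moved when 1 library was left out of that fit. The blocked log2 change then lay between 1.08 and 1.40 for BAR1 and between 0.39 and 1.06 for MFA1. For MFA2 it lay between 0.37 and 0.81 and for AGA2 between 0.39 and 0.73. Without the block, leaving out wild-type replicate 2 moved the log2 change to 0.43 for MFA1, 0.24 for MFA2 and 0.22 for AGA2, and leaving out wild-type replicate 1 moved that of MFA2 to 0.95 and that of AGA2 to 0.93. The blocked count was 4 without replicate 1 of the Ccr4/Pop2 degron, the library whose counts were multiples of 4. With total-count scaling the median of all genes moved to 0.12, STE2 turned to 0.0059, and the block still called 4 of the 6 higher.

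**Figure D3:**
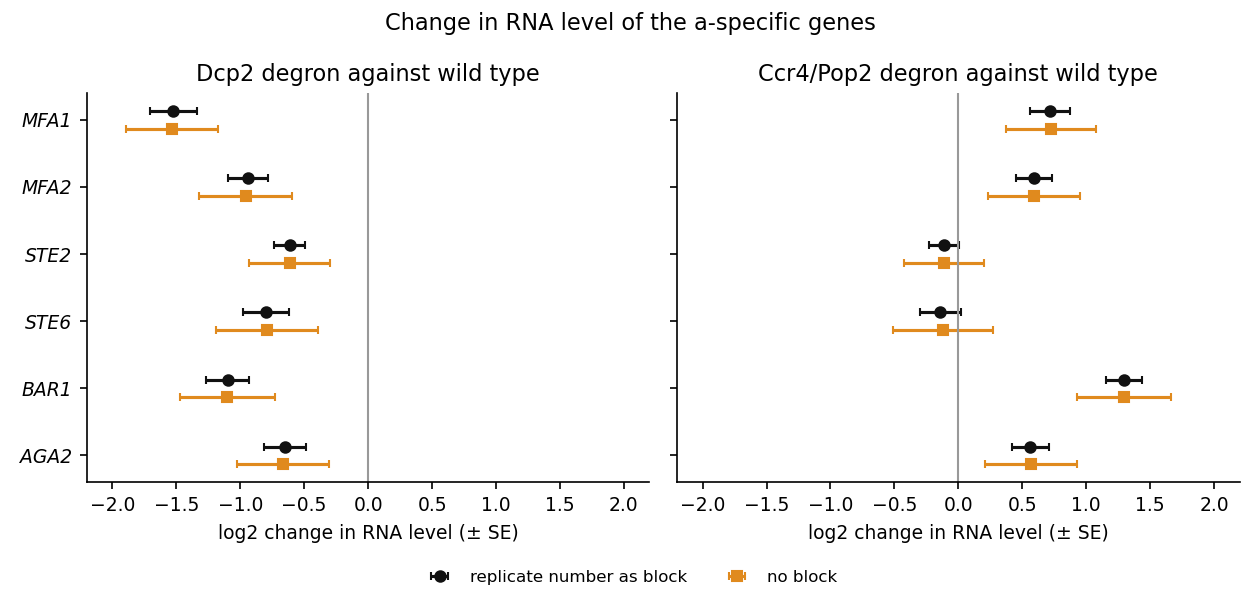
Log2 change in RNA level of each a-specific gene in Dcp2 degron cells (left) and in Ccr4/Pop2 degron cells (right) against the wild type, with standard errors, from the fit with the replicate number as a block (black circles) and without it (orange squares). The changes are nearly the same in both fits and the standard errors are smaller with the block; all 6 genes lie below 0 on the left, 3 of them (STE2, AGA2 and STE6) closer to 0 and not called when total-count scaling is used, and STE2 and STE6 lie near 0 on the right.

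Set directly against each other, the Ccr4/Pop2 degron libraries were above the Dcp2 degron libraries for 6 of the 6 genes in TMM-scaled CPM, without overlap, as for 23.4% of all genes. With total-count scaling this held for 3 of the 6 (MFA1, MFA2 and BAR1) and for 4.54% of all genes. This comparison uses the same libraries as the previous ones and is no separate evidence. Unlike the comparisons with the wild type, it does not differ in the other alleles that both degron strains share. The log2 differences were 2.40 ± 0.38 for BAR1 (adjusted p = 0.064), 2.26 ± 0.37 for MFA1 (adjusted p = 0.066) and 1.55 ± 0.37 for MFA2 (adjusted p = 0.13) in edgeR's quasi-likelihood test. AGA2 followed with 1.23 ± 0.36, STE6 with 0.67 ± 0.40 and STE2 with 0.50 ± 0.32. Without the block none of the 6 and 0 of 4909 genes (0%) were called, while 803 had an unadjusted p under 0.05 and DESeq2 called 155, among them BAR1, MFA1 and MFA2. With the block all 6 were called higher by edgeR, where 26.3% of all genes were, with adjusted p-values from 3.3e-09 (BAR1) to 0.0044 (STE6). The median difference of the 6 genes was 1.39, and that of all genes 0.09. With total-count scaling the median of all genes moved to -0.31, and 4 of the 6 were called with the block.

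The ratio of MFA2 to MFA1 within a library does not depend on scaling. It was 1.62 and 1.04 reads of MFA2 per read of MFA1 in Dcp2 degron cells, 0.841 and 0.716 in Ccr4/Pop2 degron cells and 0.894 and 0.806 in wild-type cells. MFA2 exceeded MFA1 in both Dcp2 degron libraries and in no other. The log2 ratio differed by 0.61 between the Dcp2 degron and the wild type (exact permutation p = 0.333, two-sided, the smallest p that 2 against 2 libraries allow). This difference was 0.29 without Dcp2 degron replicate 1 and 0.93 without Dcp2 degron replicate 2. Between the Ccr4/Pop2 degron and the wild type it differed by -0.13 (exact permutation p = 0.667), and by between -0.25 and -0.01 when 1 library was left out.

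Decay studies often set the unstable MFA2 RNA against the stable PGK1 RNA. The ratio of MFA2 to PGK1 reads was 0.0245 and 0.0263 in Dcp2 degron cells, 0.0436 and 0.0519 in Ccr4/Pop2 degron cells and 0.0431 and 0.0371 in wild-type cells. The Dcp2 degron libraries were below all others, and the Ccr4/Pop2 degron libraries were at or above the wild-type libraries. The log2 ratio differed by -0.66 between the Dcp2 degron and the wild type and by 0.25 between the Ccr4/Pop2 degron and the wild type (exact permutation p = 0.333 each). When 1 library was left out, the difference between the Ccr4/Pop2 degron and the wild type lay between 0.12 and 0.38. PGK1 itself had 3703 and 3040 CPM in Dcp2 degron cells, 6355 and 4264 CPM in Ccr4/Pop2 degron cells and 4725 and 3431 CPM in wild-type cells. Its log2 change was -0.27 in Dcp2 degron cells (-0.26 with the block, adjusted p = 0.063, edgeR) and 0.38 in Ccr4/Pop2 degron cells (0.37 with the block, adjusted p = 0.015, a call lost in 4 of the 6 blocked fits without 1 library). With total-count scaling the PGK1 change in Dcp2 degron cells turned to 0.23.

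Across the 6 libraries, the 5 genes whose centred log2 CPM lay nearest to that of MFA2, among 3948 genes, included YKR075C (Euclidean distance 0.153), NUP133 (0.346), AGA2 (0.369) and MIG2 (0.4001). MFA1 ranked 192, BAR1 247, STE6 256 and STE2 680 on that list. The distances describe these 6 libraries, which share strain and replicate differences.

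Poly(A) tails of the a-specific RNAs were mostly longer than that of the median gene of the same library. In both wild-type libraries and in Dcp2 degron replicate 1 the excess was largest for MFA1 and MFA2. In Dcp2 degron replicate 2 it was larger for STE6 (13.7 nt) and BAR1 (12.1 nt) than for MFA2 (10.2 nt) and MFA1 (10.1 nt). AGA2 tails were near the middle in some libraries, longer than 50.8% of genes in Dcp2 degron replicate 2 and 53.2% in wild-type replicate 2. STE6 and BAR1 tails were below the median gene in wild-type replicate 1, longer than 35.9% and 35.4% of genes. In Ccr4/Pop2 degron cells the tails of the 6 genes were nearly equal to each other. The tail of the median gene was 31.45 and 38.8 nt in Dcp2 degron cells, 50.6 and 51.6 nt in Ccr4/Pop2 degron cells and 38.4 and 42.9 nt in wild-type cells. Among the 6 genes the longest and the shortest median tail were 26.4 and 13.6 nt apart in Dcp2 degron cells, 4.59 and 2.64 nt apart in Ccr4/Pop2 degron cells and 18.7 and 8.81 nt apart in wild-type cells. The SD over the 6 genes was 9.64 and 5.25 nt in Dcp2 degron cells, 1.61 and 1.08 nt in Ccr4/Pop2 degron cells and 7.43 and 3.53 nt in wild-type cells. Over all genes it changed little, between 7.07 and 7.28 nt in Dcp2 degron cells, 6.14 and 6.52 nt in Ccr4/Pop2 degron cells and 6.81 and 6.83 nt in wild-type cells. The values are medians over reads. The lowest count of the 6 genes was 91 and 88 in Dcp2 degron cells and 246 and 96 in wild-type cells. In Ccr4/Pop2 degron cells it was 948 and 129, where the 948 is from the library whose counts were multiples of 4.

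The a-factor RNAs had the longest tails of the set in wild-type cells. MFA1 tails were 59.2 and 48.9 nt in Dcp2 degron cells, 57.3 and 56.8 nt in Ccr4/Pop2 degron cells and 54.9 and 52.3 nt in wild-type cells. The 2 Dcp2 degron libraries fell on either side of the wild type, so those strains overlapped. Within its library the MFA1 tail was longer than that of 99.8% and 90.2% of genes in Dcp2 degron cells, 85.1% and 82.3% in Ccr4/Pop2 degron cells and 97.5% and 90.5% in wild-type cells. MFA2 tails were 43.45 and 49.0 nt in Dcp2 degron cells, 56.65 and 57.8 nt in Ccr4/Pop2 degron cells and 49.8 and 51.7 nt in wild-type cells. The 3 strains did not overlap for MFA2. Its percentile was 93.4 and 90.6 in Dcp2 degron cells, 82.5 and 85.8 in Ccr4/Pop2 degron cells and 91.0 and 89.0 in wild-type cells.

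STE2 tails were 37.4 and 42.6 nt in Dcp2 degron cells, 56.3 and 56.8 nt in Ccr4/Pop2 degron cells and 43.85 and 46.9 nt in wild-type cells. The strains kept the order of MFA2 without overlap. AGA2 tails were 32.8 and 38.9 nt in Dcp2 degron cells, 55.2 and 55.4 nt in Ccr4/Pop2 degron cells and 42.0 and 43.5 nt in wild-type cells, with the same order and no overlap. STE6 tails were 34.2 and 52.5 nt in Dcp2 degron cells, 55.8 and 55.25 nt in Ccr4/Pop2 degron cells and 36.3 and 45.9 nt in wild-type cells. BAR1 tails were 40.02 and 50.9 nt in Dcp2 degron cells, 52.7 and 55.1 nt in Ccr4/Pop2 degron cells and 36.2 and 45.8 nt in wild-type cells. In both the Dcp2 degron and the wild type, replicate 2 was longer than replicate 1 for STE2, AGA2, STE6 and BAR1. The same held for MFA2 and for the median gene, while MFA1 went the other way. For STE6 and BAR1 the libraries of the Dcp2 degron and the wild type overlapped.

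**Figure D4:**
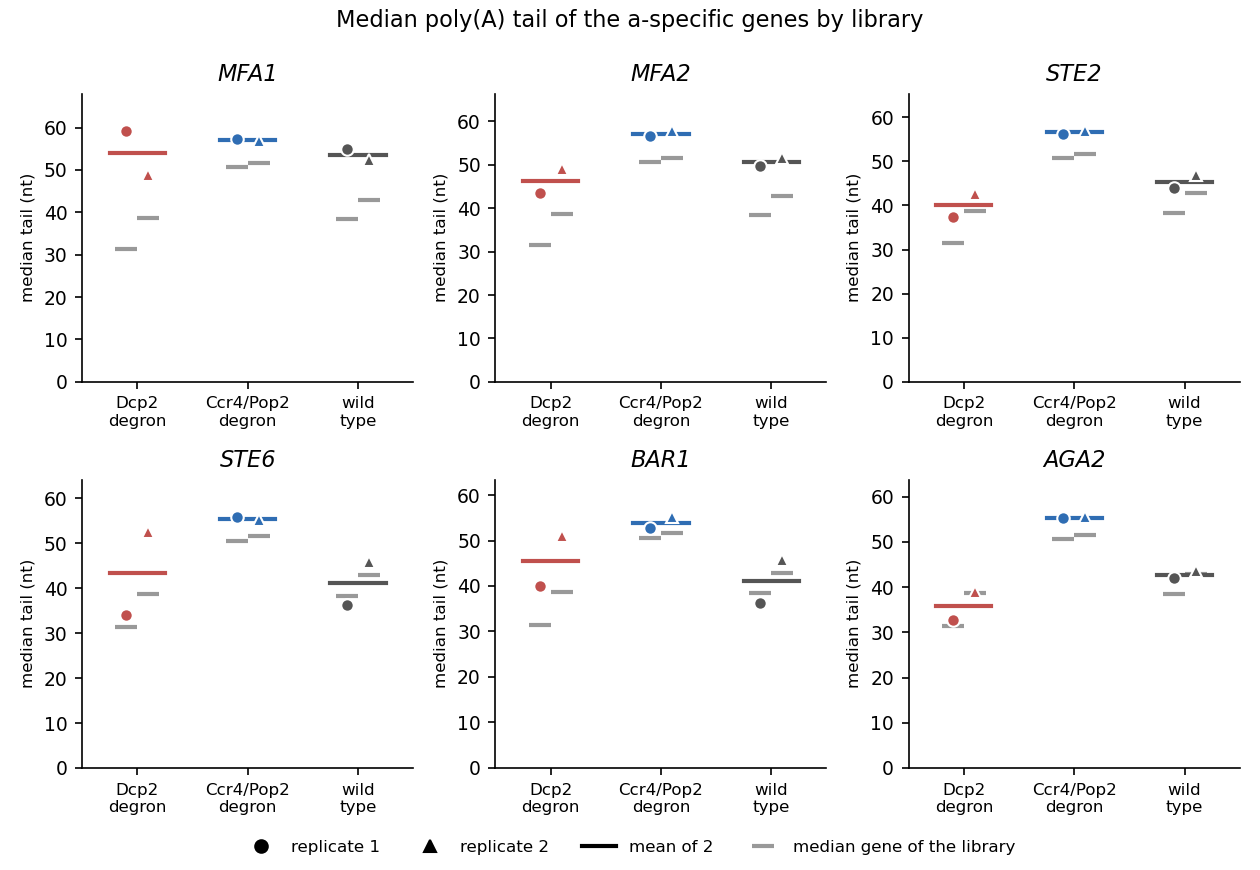
Median poly(A) tail length in nucleotides of each a-specific gene by library, on an axis that starts at 0; circles are replicate 1, triangles replicate 2, coloured bars the mean of the 2 libraries and grey dashes the tail of the median gene of the same library. The Ccr4/Pop2 degron libraries lie between 52.7 and 57.8 nt in every panel. MFA1, MFA2, STE2 and AGA2 lie above the grey dashes in all libraries, AGA2 by only 0.135 nt in Dcp2 degron replicate 2.

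Against the wild type, the Dcp2 degron gave no tail change that passed in any of the 6 genes. Over all genes tails were shorter in Dcp2 degron cells, with a median log2 change of -0.22, while the median of the 6 genes was -0.07. The log2 changes were -0.26 ± 0.13 for AGA2, -0.18 ± 0.13 for STE2, -0.14 ± 0.12 for MFA2, 0.01 ± 0.14 for MFA1, 0.05 ± 0.22 for STE6 and 0.15 ± 0.17 for BAR1 (SE). Limma called 0 of the 6 and 0 of 3949 genes (0%) at an adjusted p under 0.05, and 793 genes had an unadjusted p under 0.05. Tails of MFA2, STE2 and AGA2 were shorter without overlap, 3 of the 6, where 44.9% of all genes were. Longer without overlap were 0 of the 6 and 1.67% of all genes. Without Dcp2 degron replicate 2 the fit called 2073 genes, with AGA2 as the only one of the 6.

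Against the wild type, both Ccr4/Pop2 degron libraries had longer tails than both wild-type libraries for all 6 genes, as they had for 90% of all genes. The log2 changes were 0.45 ± 0.22 for STE6, 0.40 ± 0.17 for BAR1, 0.37 ± 0.13 for AGA2, 0.32 ± 0.13 for STE2, 0.17 ± 0.12 for MFA2 and 0.09 ± 0.14 for MFA1 (SE). The 2 a-factor RNAs, with the longest wild-type tails of the set, had the smallest differences. The median change was 0.35 for the 6 genes and 0.30 for all genes. Limma called 0 of the 6 and 0 of 3949 genes (0%), with 1136 genes at an unadjusted p under 0.05. When only the Ccr4/Pop2 degron and the wild type entered the fit, or when either Dcp2 degron library was left out, limma called 2336 genes and 4 of the 6, STE2, STE6, BAR1 and AGA2. Relative to the median gene of its library, the MFA1 tail turned to a log2 change of -0.24, that of MFA2 to -0.16 and that of STE2 to -0.01.

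Between the strains, tails in Ccr4/Pop2 degron cells were longer than in Dcp2 degron cells without overlap for 5 of the 6 genes, all but MFA1, as for 95.7% of all genes. Limma called 2 of the 6, where 69.6% of all genes were called longer. These were AGA2, with a log2 difference of 0.63 ± 0.13 (adjusted p = 0.014), and STE2, with 0.50 ± 0.13 (adjusted p = 0.018). MFA2 differed by 0.31 ± 0.12 and missed the threshold in limma (adjusted p = 0.055), and the difference of MFA1 was 0.09 ± 0.14 (adjusted p = 0.56). STE6 differed by 0.39 ± 0.22 and BAR1 by 0.26 ± 0.17. The median difference was 0.35 for the 6 genes and 0.53 for all genes. The calls, of the 6 and of all genes, were lost without either Ccr4/Pop2 degron library. When 1 library was left out the difference lay between 0.51 and 0.76 for AGA2 and between 0.41 and 0.60 for STE2. It lay between 0.22 and 0.40 for MFA2, 0.081 and 0.70 for STE6, 0.083 and 0.43 for BAR1 and -0.053 and 0.22 for MFA1.

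Genes that act with the a-specific genes were followed as lists. The a-factor precursor is farnesylated by Ram1 and Ram2, cut by proteases such as Ste24, Axl1 and Ste23, and methylated by Ste14. Of the 6 maturation genes analysed, 0 were called for RNA level in any of the 3 comparisons by edgeR, with or without the block. Of all 4909 genes, the block called 1834 in Dcp2 degron cells, 1327 in Ccr4/Pop2 degron cells and 2311 between the degron strains. Without the block these numbers were 0, 4 and 0. Their median log2 change was 0.01 in Dcp2 degron cells, against -0.87 for the a-specific genes. In tail length, RAM1, RAM2, STE14 and STE23 were called longer in Ccr4/Pop2 degron cells than in Dcp2 degron cells (4 of 6, where 69.6% of all genes were; log2 differences between 0.49 and 0.56, limma, adjusted p between 0.016 and 0.041).

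Of 21 genes of pheromone signalling, 0 were called without the block in any of the 3 comparisons by edgeR, where at most 4 of all 4909 genes were. With the block, 1 was called higher and 4 lower in Dcp2 degron cells, where 17.6% of all genes were called higher and 19.7% lower. In Ccr4/Pop2 degron cells 1 was called higher and 1 lower, where 14.2% and 12.8% of all genes were. Their median log2 change with the block was -0.37 in Dcp2 degron cells and 0.01 in Ccr4/Pop2 degron cells, where all genes had medians of -0.0027 and -0.01. GPA1, the alpha subunit of the G protein that Ste2 activates, had 48.8 and 42.0 CPM in Dcp2 degron cells, 102 and 111 CPM in Ccr4/Pop2 degron cells and 92.1 and 98.2 CPM in wild-type cells. Its Dcp2 degron libraries were the lowest in TMM-scaled CPM and did not overlap with the others, and with total-count scaling they overlapped with the wild type. The GPA1 log2 change in Dcp2 degron cells was -1.07 ± 0.28 (SE; adjusted p = 0.29, edgeR), and -1.07 ± 0.17 with the block (adjusted p = 9.3e-05). FUS3, the mitogen-activated kinase of the pathway, had with the block a log2 change of -0.53 in Dcp2 degron cells (adjusted p = 0.040) and 0.49 in Ccr4/Pop2 degron cells (adjusted p = 0.037, edgeR). The GTPase gene CDC42 changed by -0.62 in Dcp2 degron cells and by -0.37 in Ccr4/Pop2 degron cells with the block (adjusted p = 0.0020 and 0.047, edgeR). The kinase gene STE20 was just past the threshold in Dcp2 degron cells with the block, at 0.54 (adjusted p = 0.049, edgeR). With the block and only the 2 strains it was not called (adjusted p = 0.058, edgeR), and its log2 change was 0.17 without wild-type replicate 2 and 1.02 without wild-type replicate 1. Leaving out 1 library from the blocked fit also ended the calls of FUS3 and CDC42 in both degron strains, with FUS3 at 0.28 in Ccr4/Pop2 degron cells without their replicate 1. The GPA1 call held in all 6 such fits. FAR1, which encodes the cell cycle inhibitor of the pathway, and DIG2, which encodes an inhibitor of Ste12, were called with the block between the degron strains and not against the wild type, with Ccr4/Pop2 degron minus Dcp2 degron differences of 0.71 and -1.03 (adjusted p = 0.0045 and 0.0032, edgeR). The DIG2 call was lost without replicate 1 of either degron strain.

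Of 8 pheromone-induced genes, with the block 3 were called higher and 1 lower in Dcp2 degron cells, and 2 higher and 0 lower in Ccr4/Pop2 degron cells, against 0 without it (edgeR). Of all genes 17.6% were called higher and 19.7% lower in Dcp2 degron cells, and 14.2% higher and 12.8% lower in Ccr4/Pop2 degron cells. In Dcp2 degron cells the log2 change with the block was 1.06 for PRM9, 1.04 for KAR5, 0.71 for PRM5 and -1.55 for GIC2. Leaving out 1 library from that fit ended the calls of PRM9, KAR5 and PRM5 there (PRM5 at 0.45 without wild-type replicate 2), and the call of GIC2 held in all 6 fits. In Ccr4/Pop2 degron cells it was 1.19 for KAR4, which encodes a transcription factor of the mating response, and 1.03 for PRM5. PRM3 was called with the block only between the strains, at -1.23, and not without replicate 1 of either degron strain. KAR5, PRM3 and KAR4 act in nuclear fusion during mating, and GIC2 encodes an effector of Cdc42. The directions differed among these genes in Dcp2 degron cells. The median of the 8 genes with the block was 0.36 in Dcp2 degron cells and 0.05 in Ccr4/Pop2 degron cells.

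The single alpha-specific gene analysed, SAG1, differed in the opposite direction to MFA1, MFA2, BAR1 and AGA2 in both degron strains. STE2 and STE6 did so in Dcp2 degron cells only. In Ccr4/Pop2 degron cells their small changes (-0.11 and -0.14 with the block, not called) had the same sign as that of SAG1. With the block its log2 change was 0.97 ± 0.37 in Dcp2 degron cells (adjusted p = 0.046) and -1.57 ± 0.44 in Ccr4/Pop2 degron cells (adjusted p = 0.012) in edgeR's test, and without it SAG1 was not called. The blocked call was also lost in both strains when 1 library was left out, with log2 changes of 0.46 without Dcp2 degron replicate 1 and -0.83 without Ccr4/Pop2 degron replicate 1. Its counts were low, 37 and 31 in Dcp2 degron cells, 28 and 7 in Ccr4/Pop2 degron cells and 18 and 13 in wild-type cells. Both wild-type counts of SAG1 lay below 20, the lowest count of any analysed gene in replicate 1 of each degron strain. Its listing, and the absence of other alpha markers, may thus depend on the levels compared here. The direction of SAG1 is therefore no independent result. Of the 5 genes of the mating-type loci and haploid-specific genes, 4 were called higher in Dcp2 degron cells and 4 lower in Ccr4/Pop2 degron cells with the block (17.6% and 12.8% of all genes were), and 0 without it (edgeR). Leaving out either wild-type library ended the 4 calls in Ccr4/Pop2 degron cells, and the 4 calls in Dcp2 degron cells held in all 6 such fits. Of these 4, MATALPHA2, HMLALPHA2 and HMRA2 share sequence, and their reads differed by at most 2.78% in any library, so they count as 1 measurement. HMRA2 had 201 and 618 CPM in Dcp2 degron cells, 61.3 and 178 CPM in Ccr4/Pop2 degron cells and 90.0 and 249 CPM in wild-type cells. Replicate 2 was higher than replicate 1 in each strain, and the wild type overlapped with both degron strains. The log2 change of HMRA2 with the block was 1.24 ± 0.13 in Dcp2 degron cells and -0.52 ± 0.13 in Ccr4/Pop2 degron cells. HMRA1, which shares sequence with the a1 gene of the MAT locus, was not called for level, with a log2 change with the block of -0.08 in Dcp2 degron cells and 0.09 in Ccr4/Pop2 degron cells. NEJ1, a DNA end-joining gene that a/alpha diploids repress, had 63.6 and 86.4 CPM in Dcp2 degron cells, 17.6 and 20.6 CPM in Ccr4/Pop2 degron cells and 27.8 and 37.8 CPM in wild-type cells. Its 3 strains did not overlap, and the NEJ1 log2 change with the block was 1.20 ± 0.19 in Dcp2 degron cells and -0.73 ± 0.21 in Ccr4/Pop2 degron cells (adjusted p = 8.4e-05 and 0.015, edgeR). RME1, in which the degron strains carry an insertion, was not analysed here.

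The other genes with the operator in the window are no a-specific genes apart from ASG7, which was not analysed here. They were BET3, BTS1, EGO4, GSP2, NBA1, NPR3, NUF2 and YDL129W, and NBA1 and NUF2 share a single site between them. With the block, 0 of these 8 genes were called lower in Dcp2 degron cells, where 19.7% of all genes were. In each degron strain the same 2 were called higher, where 17.6% of all genes were in Dcp2 degron cells and 14.2% in Ccr4/Pop2 degron cells, each strain taken alone. These were EGO4, with log2 changes of 0.76 in Dcp2 degron cells and 0.84 in Ccr4/Pop2 degron cells, and GSP2, with 1.94 in Dcp2 degron cells and 1.49 in Ccr4/Pop2 degron cells. Without the block 0 of the 8 were called by edgeR in either degron.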

How the data were processed

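A single deposited table covers the 6 libraries. Per the file headers it holds a raw read count for each gene and library, and a median per gene and library. That deposited score is read here as the median tail length in nt, going by nanopolish, a tail estimator, in the table's name. The authors also deposited, per strain, a mean tail length, a mean count (a coverage signal) and a log2 value of that mean, which recomputed within 0.006 for 4909 of 4909 genes and were not used further. Per the submitters' processing notes, minimap2, SAMtools 1.9 and sacCer3 were used. The basecaller, settings, annotation, gene selection and use of strand are not given in the sources used here. A final 2 in a column name was read as replicate 2, and the unnumbered column of a strain, by elimination, as replicate 1. The number of columns matching no sample was 0.

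RNA levels were tested with edgeR 4.0.16 in R 4.3.3 (TMM, glmQLFit, glmQLFTest, all 6 libraries, no block, all genes kept), with Benjamini-Hochberg adjustment over 4909 genes and calls at an adjusted p under 0.05. Tails were tested with limma 3.58.1 on log2 medians of 3949 genes that reached 20 reads in all libraries. Standard errors of levels are the log2 change over the square root of F. Ratios were tested with exact permutation (SciPy 1.17.1). Alternatives included DESeq2 1.42.0, total-count scaling and leaving out each library.

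The pairing comes from the replicate numbers in the titles. Deviations from the strain means, over genes, correlated between same-numbered libraries at 0.794 (Dcp2 degron and Ccr4/Pop2 degron), 0.804 (Dcp2 degron and wild type) and 0.823 (Ccr4/Pop2 degron and wild type) for log2 CPM. For log2 tails the values were 0.0548, 0.257 and 0.148. The numbers were taken to pair the libraries for level only, which for tails is a choice that these values do not settle. Correlations over genes cannot show a shift shared by all tails of a library, and the median tail was longer in replicate 2 of each strain. Tail fits with the block are given among the alternatives.

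Besides the 6 members and PGK1, genes were named where they were called in a list, at most the 6 per list with the smallest adjusted p, with the 5 genes nearest to MFA2 in log2 CPM (prior count 1), of which 1 is not reported here. The members, lists and this rule were chosen with earlier results of these data known. Genes of the lists that are absent from the table were not analysed here.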

Additional observations from a re-analysis of the deposited data

How the results depend on the processing

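For RNA level in edgeR, the Dcp2 degron against the wild type gave 0 of the 6 and 0 genes without a block, 6 and 1834 with the replicate block, and 3 and 2790 with the block and total-count scaling. Ccr4/Pop2 degron against wild-type cells gave 0 and 4, 4 and 1327, and 4 and 1424 in the same order, and the Ccr4/Pop2 degron against the Dcp2 degron 0 and 0, 6 and 2311, and 4 and 2489. With the block and only the 2 strains compared, chosen after seeing the data like the blocked fits that leave out a library, the counts were 6 and 1874, 4 and 1697, and 6 and 1879. The blocked fits without 1 library gave 3 to 6 and 890 to 2022, 1 to 4 and 395 to 1672, and 5 to 6 and 1593 to 2182. Without a block, total-count scaling gave 5 genes in Dcp2 degron cells and 0 in Ccr4/Pop2 degron cells, only 2 strains gave 0 in Ccr4/Pop2 degron cells, and leaving out a library gave 0 to 0 there and 0 to 16 between the degrons. DESeq2 called 53, 33 and 155 genes, and 3 of the 6 in the last. Directions of level turned in few cases: with total-count scaling PGK1 in Dcp2 degron cells (0.23, with the block 0.26) and STE2 in Ccr4/Pop2 degron cells (0.0059, with the block 0.0090). Leaving out a library, with the replicate block or not, moved the level change against the wild type in Ccr4/Pop2 degron cells between -0.49 and 0.28 for STE6, -1.48 and 0.33 for HMRA2, -1.49 and 0.33 for HMLALPHA2 and -1.46 and 0.35 for MATALPHA2. For tails, the replicate block called 3 of the 6 and 3313 genes between the degrons and 0 against the wild type. Between the degrons, a minimum of 50 reads gave 1739 genes, where fewer genes were tested, and centring each library on its median gave 0 of the 6 and 0 genes, while leaving out a library gave 0 to 5 of the 6 and 0 to 3671 genes. In Dcp2 degron cells, centring gave 1 gene, a linear scale 2, and leaving out a library 0 to 1 of the 6 and 0 to 2073 genes. In Ccr4/Pop2 degron cells, only 2 strains gave 4 of the 6 and 2336 genes, and leaving out a library 0 to 4 and 0 to 2336. Centring turned these log2 tail changes: in Dcp2 degron cells MFA2 (0.079), STE2 (0.032), PGK1 (0.12) and the median of the 6 (0.15); in Ccr4/Pop2 degron cells MFA1 (-0.24), MFA2 (-0.16), STE2 (-0.014) and PGK1 (-0.18); between the degrons MFA1 (-0.46), MFA2 (-0.24), STE2 (-0.046), STE6 (-0.16), BAR1 (-0.29), the median of the 6 (-0.20), RAM2 (-0.043), STE14 (-0.055), STE23 (-0.013), FUS3 (-0.047), CDC42 (-0.055), PRM9 (-0.019) and PGK1 (-0.30). Leaving out a library moved the tail change in Dcp2 degron cells between -0.13 and 0.14 for MFA1, -0.26 and 0.36 for STE6, -0.025 and 0.32 for BAR1 and -0.26 and 0.061 for PGK1, in Ccr4/Pop2 degron cells between -0.011 and 0.31 for PGK1, and between the degrons between -0.053 and 0.22 for MFA1. The causes of these shifts were not tested. Of 126 level changes of the 6 genes under settings that leave out none of the libraries compared, 78 kept direction and side of the threshold and 46 newly passed it, 3 of them with DESeq2 and the others with the block. Depth limited the smallest of the 6 genes to 88 reads.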
